A study of Mus musculus with 20 samples.

Results

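The proteasome is the large protease that degrades ubiquitin-tagged proteins. Its barrel-shaped core holds rings of alpha subunits, which gate the entrance, and rings of beta subunits, of which Psmb5, Psmb6 and Psmb7 cut peptide bonds. In lymphocytes and under interferon gamma these can be replaced by Psmb8, Psmb9 and Psmb10, which form the immunoproteasome and change the peptides made for MHC class I, while Psme1 and Psme2 build the PA28 activator that caps the core. Here the genes of this machine were examined in CD4+ iNKT1 cells, a T cell type with an invariant receptor that recognises lipids on CD1d and with a T-bet-driven, cytokine-producing programme.

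Members were the genes whose symbol is Psm followed by a letter from a to g and a digit, with a mean of at least 50 normalised reads, meaning read counts scaled by each library's size factor, and without a pseudogene name. The pattern matched 54 of 53714 genes, and 47 of these were members. They comprised 14 constitutive core subunits, 3 immunoproteasome subunits, 22 regulatory genes, 7 assembly chaperones and Psmc3ip, a meiotic recombination factor that is matched by its name only. Of the others, 3 were below the minimum, with means of 0.137 for Psma8, a testis alpha subunit, 0.0783 for Psmb11, the beta subunit of thymic cortical epithelium, and 0 for Psme2b. The remaining 4 carried pseudogene names (Psmb5-ps, Psmb6-ps, Psmb6-ps2 and Psmb7-ps2) and had means between 0 and 0.237. The members nearest the minimum were Psmc3ip (54.2) and Psmg3 (54.3), and no matched gene lay just under it. All 47 members passed the filter on low values in every fit.

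The 20 libraries came from CD4+ iNKT1 cells sorted from female, young adult, otherwise untreated wild-type mice. BALB/c liver cells were prepared with warm enzymatic digestion (liver_H, n = 3) or in the cold (liver_C, n = 2). BL6 (C57/BL6N) cells came from thymus, blood, spleen, liver_H and liver_C (n = 3 each). Livers were perfused and split for the preparations, spleen and liver cells were pooled from several mice, and the thymus cells were gated with CD122 in place of CXCR3. The labels do not say which libraries share mice, so p-values measure the spread between these libraries. Since these are bulk RNA samples, fewer cells of a type and less RNA per cell cannot be told apart.

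Depth was 9336861 to 22879834 reads per library, from 10700 to 209900 sorted cells, and the 6 most abundant genes took 26.2% to 50.9% of the reads. The 10 iNKT1 markers (among them Cd3e, Cd4, Il2rb, Tbx21 and Zbtb16) all had reads in every group, with a summed level of 37170 to 43779 normalised reads in thymus and 40965 to 66899 in the other groups. The thymus libraries stood apart by markers of double-positive thymocytes, the immature T cells of the thymus (Rag1, Rag2, Dntt, Ptcra, Cd8a, Cd8b1, Cd1d1 and Arpp21). Of these, Cd1d1 did not set them apart, at 85.0 to 96.0 normalised reads in thymus and 126 to 152 in spleen. The sum of the 8 genes was 11065, 24987 and 18518 normalised reads in the thymus libraries, with none of them at 0, and 60.2 to 2891 in the other 17. Library numbers fall into 3 ranges. BL6 liver_H had 2 libraries of the lowest and 1 of the middle range, BL6 liver_C had 1 of the middle and 2 of the highest, thymus and blood each had 1 of the lowest and 2 of the highest, and spleen had 1 of the middle and 2 of the highest.

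Levels between genes were compared per kilobase of gene length. Psme1 led with 2466 normalised reads per kb over the 20 libraries, followed by Psmb8 with 2090 and the core subunit Psmb1 with 1576. The other immunoproteasome genes had 582 (Psmb10) and 202 (Psmb9) normalised reads per kb, and Psme2 had 656. Of their constitutive counterparts, Psmb6 had 420, Psmb5 had 157 and Psmb7 had 119 normalised reads per kb. Thus, per kilobase, Psmb8 and Psmb10 were above Psmb5 and Psmb7 in every library, and Psmb9 was below Psmb6 in every library. The last order rests on the gene lengths of the deposited table, 3659 bases for Psmb9 and 1872 for Psmb6. Without division by length their means were 738 and 786 normalised reads, and their order differed between libraries. The 14 constitutive genes (Psma1 to Psma7 and Psmb1 to Psmb7) ranged from 119 to 1576 with a median of 279 normalised reads per kb. The 22 regulatory genes were the ATPases Psmc1 to Psmc6, the other 19S subunits Psmd1 to Psmd4, Psmd6 to Psmd8 and Psmd11 to Psmd14, the activators Psme1 to Psme4 and the inhibitor Psmf1. They ranged from 62.0 to 2466 with a median of 245 normalised reads per kb. The 7 chaperones (Psmd5, Psmd9, Psmd10 and Psmg1 to Psmg4), which help to build the particle without staying in it, were lower, with a median of 71.3.

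Most members varied little between groups. The highest group mean was 1.32 times the lowest for the median member, against 1.54 times for the median of the 9545 genes with a mean of at least 50. The median ratio was 1.24 for regulatory genes, 1.33 for constitutive genes, 1.62 for the 3 immunoproteasome genes and 1.77 for the chaperones. The steadiest member was at 1.11 and the least steady, Psmb5, at 3.35. The spread between libraries limits what these ratios show, since 5 of 47 passed the F test of limma over the 7 groups, where 24.7% of all genes passed. They were Psmb5 (adjusted p = 0.0021), Psmd6 (adjusted p = 0.0041), Psmb9 (adjusted p = 0.016), the core assembly chaperone Psmg2 (adjusted p = 0.0232) and Psme1 (adjusted p = 0.0436). Psme1 was called in only 9 of 30 alternatives (highest limma adjusted p = 0.32). Leaving out 1 library ended the call of Psmg2 (BALB/c liver_C replicate 1, blood replicate 2 or 3) and of Psmb9 (thymus replicate 2 or 3).

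**Figure D1:**
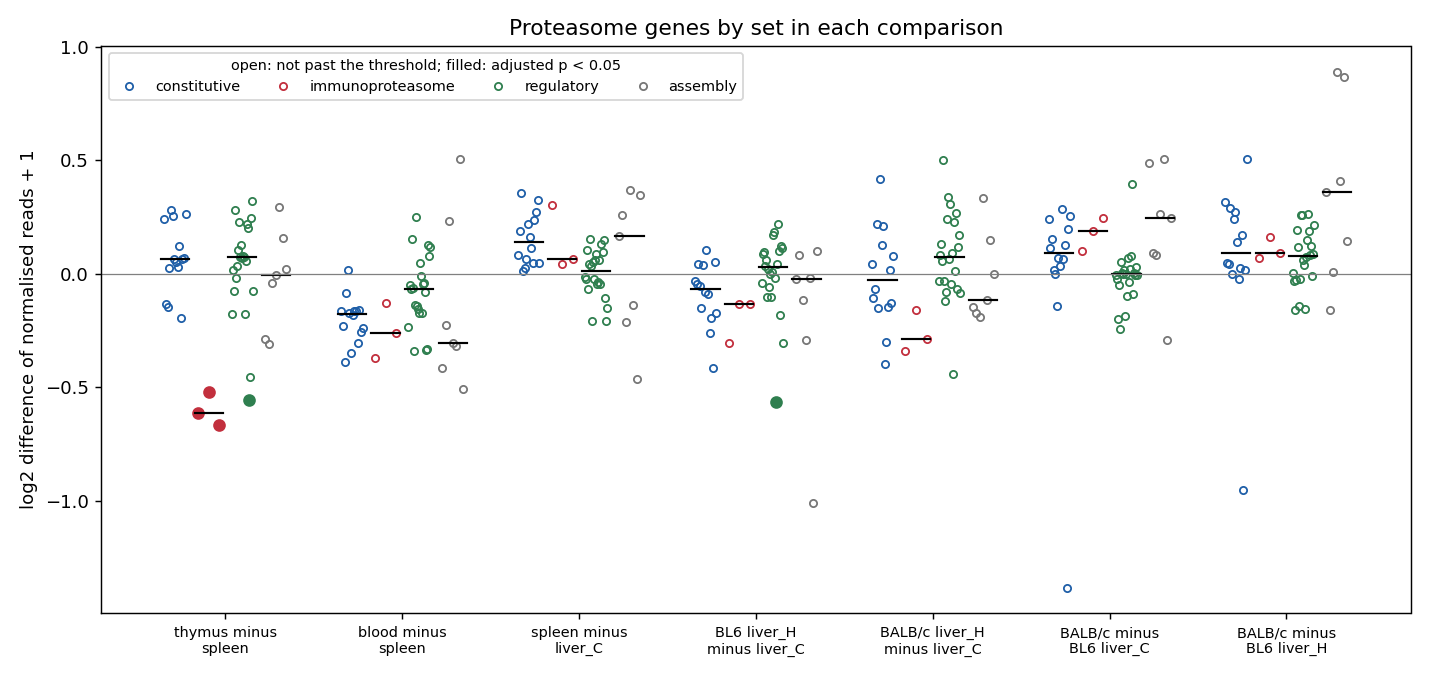
Log2 difference of each proteasome gene (vertical axis) in 7 comparisons (horizontal axis), by set, with filled points for adjusted p under 0.05 in limma and bars for set medians. In thymus against spleen the 3 immunoproteasome genes and Psme1 lie at -0.66 to -0.52, apart from constitutive genes with a median of 0.06.

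In thymus cells the immunoproteasome genes and Psme1 were lower than in spleen cells, while no constitutive core gene passed the test. Of the 47 members, 4 were lower and 0 higher in thymus, where 13.4% of all genes tested were called in either direction. These were all 3 immunoproteasome genes and 1 of 22 regulatory genes. No constitutive gene and no chaperone passed. The median log2 difference was -0.61 for immunoproteasome genes, 0.06 for constitutive genes and 0.07 for regulatory genes, against -0.01 for all genes tested.

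The promoters of the 4 genes that were lower in thymus are shown because these genes moved together. The windows are RefSeq sequences of GRCm38.p6 from 250 bases before to 50 after the start that RefSeq gives the gene, read 5′ to 3′ on the gene's strand. Capitals mark matches, on either strand, to an interferon response element (2 GAAA half-sites with 2 bases between them), an interferon gamma activated site (TTCNNNGAA) or a CCAAT box (CCAAT). They lie at chr17:34187281-34187580 (minus strand, Psmb9), chr17:34197945-34198244 (plus strand, Psmb8), chr8:105938343-105938642 (minus strand, Psmb10) and chr14:55578244-55578543 (plus strand, Psme1). The gene coordinates given below are those of the deposited table, whose starts lie upstream of the RefSeq starts, so that the windows of Psmb9, Psmb8 and Psme1 lie inside the genes as the table draws them.
Psmb9: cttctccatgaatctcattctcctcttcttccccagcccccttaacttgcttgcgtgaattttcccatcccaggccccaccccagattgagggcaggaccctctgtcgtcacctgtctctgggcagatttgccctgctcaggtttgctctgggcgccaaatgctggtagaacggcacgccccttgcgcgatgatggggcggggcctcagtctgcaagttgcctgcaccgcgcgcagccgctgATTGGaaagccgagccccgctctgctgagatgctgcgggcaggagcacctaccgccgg
Psmb8: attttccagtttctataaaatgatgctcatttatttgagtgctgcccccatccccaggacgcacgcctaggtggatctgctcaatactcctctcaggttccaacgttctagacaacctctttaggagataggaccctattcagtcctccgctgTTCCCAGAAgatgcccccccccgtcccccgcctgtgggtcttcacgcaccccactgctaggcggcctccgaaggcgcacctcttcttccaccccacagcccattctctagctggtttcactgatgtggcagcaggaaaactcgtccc
Psmb10: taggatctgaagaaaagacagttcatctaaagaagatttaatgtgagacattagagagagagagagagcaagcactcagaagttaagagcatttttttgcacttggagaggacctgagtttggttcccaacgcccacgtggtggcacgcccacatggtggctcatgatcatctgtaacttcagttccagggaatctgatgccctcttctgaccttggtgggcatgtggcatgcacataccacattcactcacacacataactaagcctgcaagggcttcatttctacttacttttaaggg
Psme1: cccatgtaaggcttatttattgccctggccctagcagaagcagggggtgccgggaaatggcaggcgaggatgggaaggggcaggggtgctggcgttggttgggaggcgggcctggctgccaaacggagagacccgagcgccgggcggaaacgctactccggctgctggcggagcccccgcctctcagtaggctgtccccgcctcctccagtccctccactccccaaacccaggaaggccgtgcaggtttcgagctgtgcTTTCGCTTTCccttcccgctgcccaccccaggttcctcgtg

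The Psme1 window held the response element, 9 bases after the start, the Psmb8 window held the activated site, 97 bases before it, and the Psmb9 window held the CCAAT box. The Psmb10 window held none of the 3 in these letters. Among 32851 promoter windows of that length, 3.44% held the response element, 8.30% the activated site and 37.4% the CCAAT box. Of the 40 members with a window of this length, 5 held the response element (Psmb3, Psmd4, Psmd9, Psme1 and Psmg4), 3 the activated site (Psmb8, Psmd2 and Psmg1) and 14 the CCAAT box. These are matches of letters only.

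Psmb9 (ENSMUSG00000096727.2, GRCm38.p6 chromosome 17 from 34181988 to 34187764, minus strand) had 625, 475 and 462 normalised reads in thymus, against 728, 838 and 898 in spleen. Every thymus library lay below every spleen library. Such separation, in either direction, held for 27% of all genes tested and for 12 of the 47 members, 6 of them higher in thymus. The log2 difference of Psmb9 was -0.66 (SE 0.14, limma adjusted p = 0.0028). Its exons share 212 bases with Tap1 on the opposite strand, a gene with a mean of 2332 normalised reads that was also lower in thymus, and since strand-aware counting is not given in the sources used here, reads in that stretch cannot be told apart.

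Psmb8 (ENSMUSG00000024338.14, chromosome 17 from 34197721 to 34201454, plus strand) lies 9956 bases from Psmb9 in the MHC class II region. It had 4594, 3666 and 4589 normalised reads in thymus, against 5578, 6610 and 6198 in spleen. The groups did not overlap, and the log2 difference was -0.52 (SE 0.14, limma adjusted p = 0.0127). Psmb10 (ENSMUSG00000031897.9, chromosome 8 from 105935735 to 105938444, minus strand) had 956, 659 and 908 normalised reads in thymus, against 1048, 1353 and 1446 in spleen. Here too the groups did not overlap, with a log2 difference of -0.61 (SE 0.16, limma adjusted p = 0.0158). Psmb8 lost its call without spleen replicate 2 or thymus replicate 2 (limma adjusted p = 0.0643 and 0.0754). Psmb10 lost it without either of these or spleen replicate 3 (limma adjusted p = 0.0645 to 0.101), and Psmb9 kept it without any 1 library.

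Psme1 (ENSMUSG00000022216.17, chromosome 14 from 55578123 to 55581529, plus strand) encodes a PA28 subunit. It had 4194, 3482 and 4576 normalised reads in thymus, against 5893, 6465 and 5553 in spleen, again without overlap (log2 difference -0.55, SE 0.13, limma adjusted p = 0.0052). Its partner Psme2, 5911 bases away, had 937, 944 and 1077 normalised reads in thymus, against 1118, 1537 and 1427 in spleen. That difference of -0.45 (SE 0.15) missed the threshold (limma adjusted p = 0.0539).

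**Figure D2:**
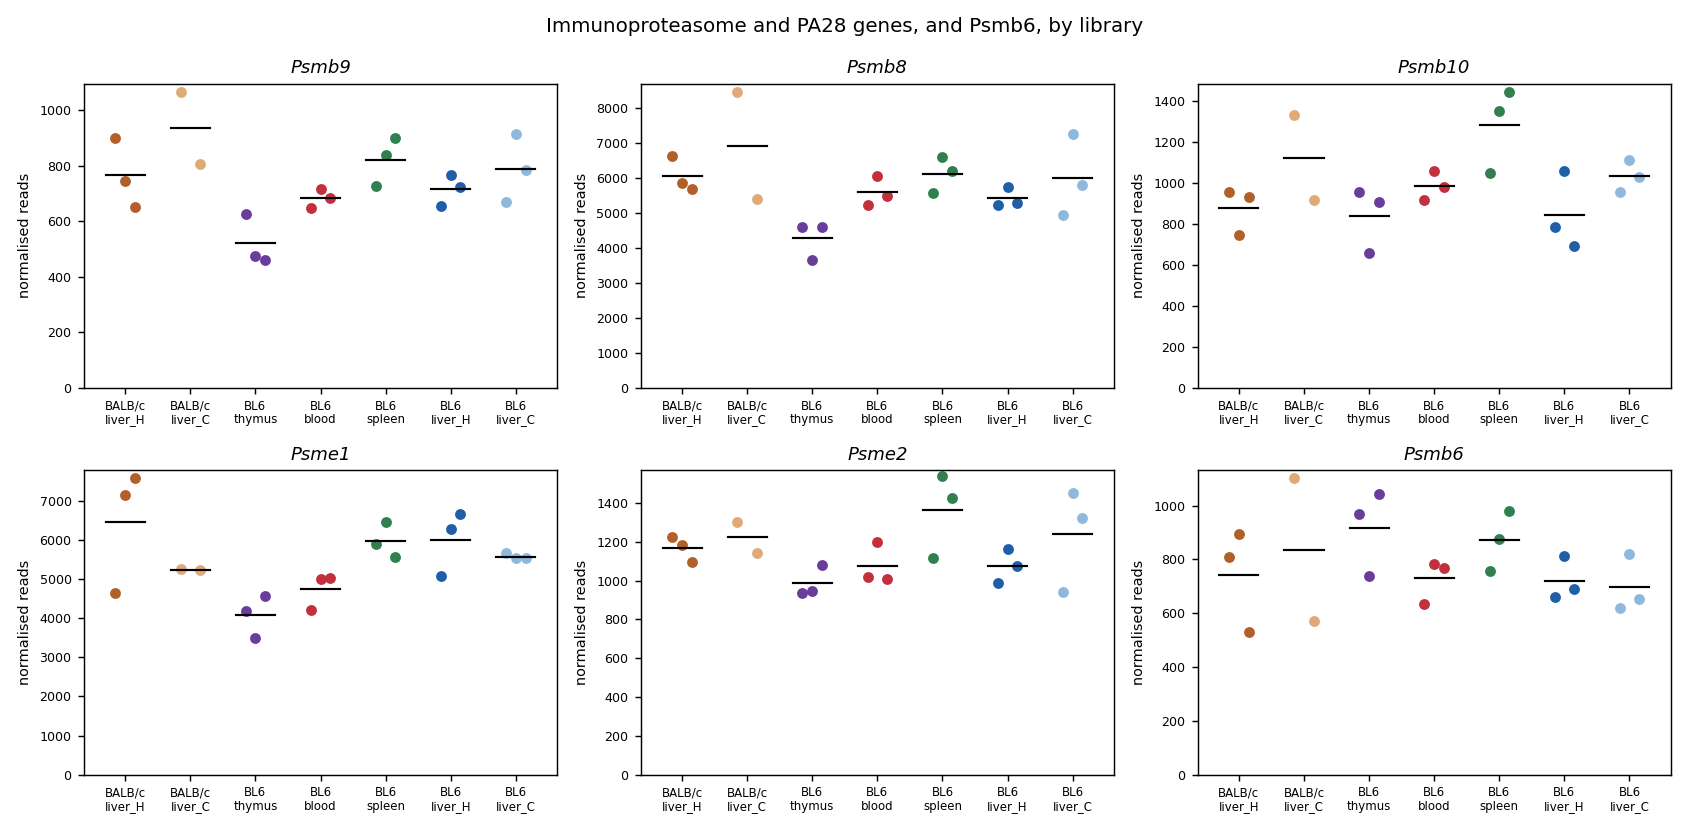
Normalised reads of 6 genes (vertical axes, from 0) in every library (points) of the 7 groups, with bars for group means. In thymus, Psmb9 lies at 462 to 625 and Psme1 at 3482 to 4576, below all spleen libraries.

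Against other BL6 groups the same genes gave a graded picture. Compared with liver_C, Psmb9 (log2 difference -0.60, limma adjusted p = 0.0072), Psme1 (-0.46, limma adjusted p = 0.0219) and Psmb8 (-0.48, limma adjusted p = 0.0239) were lower in thymus, 3 of 47 members where 12.5% of all genes were called. Compared with blood, none of the 47 passed, where 10.5% of all genes were called. An unadjusted p under 0.05 was found for 13, a count with no share of all genes beside it. Of these, 11 had a positive difference, among them Psma7 (0.41), Psma1 (0.41) and Psmc6 (0.37), and the 2 with a negative one were Psmb9 (-0.40, limma adjusted p = 0.0797) and Psmb8 (-0.39, limma adjusted p = 0.075). Psme1 had a difference of -0.22 (limma adjusted p = 0.311) and Psmb10 of -0.24 (limma adjusted p = 0.394). These comparisons share the thymus libraries and are not independent. Within the highest range of library numbers, Psmb9 had 475 and 462 normalised reads in thymus, against 838 and 898 in spleen. The thymus library of the lowest range had no spleen library beside it, and at 625 normalised reads it lay close to the blood library of that range (648).

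The double-positive thymocyte markers also differed between these groups: 7 of 8, all but Cd1d1, were higher in thymus than in spleen, with the sums given above. Of B and plasma cell markers, 4 of 6 tested were lower, with sums of 30.3 to 276 in thymus and 482 to 992 in spleen. Among iNKT1 markers 3 of 10 were lower and 0 higher, with a median log2 difference of -0.07 for the 10. Tbx21 had 1600 to 1884 normalised reads in thymus and 2659 to 3001 in spleen. Cxcr3 had 1576 to 2179 in thymus and 2506 to 2671 in spleen, and Zbtb16 had 1006 to 1614 and 1670 to 1910. The part of all these markers in the result was not tested. The thymus library with the highest double-positive sum, 24987, had the lowest Psmb8, Psmb10 and Psme1 of all 20 libraries, while Psmb9 was lowest, at 462, in the thymus library with a sum of 18518. Of 5 markers of thymic epithelium, the defining genes Psmb11 and Foxn1 were at 0 in all 3 thymus libraries. The sum of the list was 13.9 to 68.2 normalised reads in thymus and 4.93 to 12.3 in spleen, mostly from Epcam (13.9 to 51.4 in thymus and 4.93 to 12.3 in spleen), with Krt8 at up to 15.7 in thymus and 0 in spleen.

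Within-library ratios do not depend on the scaling of the library, but the part of its composition in them was not tested. Within groups, the correlation with the share of reads in the 6 most abundant genes was 0.77 for Psmb6 and 0.60 for Psmb9. It was 0.68 for Psmb5 and 0.60 for Psmb8, and 0.57 for Psmb7 and 0.48 for Psmb10. The mean log2 ratio of Psmb9 over Psmb6 per base was -1.78 ± 0.31 in thymus (SD, n = 3), against -1.06 in blood, -1.05 in spleen, -0.98 in liver_H and -0.79 in liver_C of BL6. Thymus differed from the other 12 BL6 libraries by -0.81 (exact two-sided permutation p = 0.0022, the smallest the design allows, adjusted p = 0.0165 over 15 tests). For all 3 ratios the test pools the other BL6 groups, whose means differ, and treats libraries that may share mice as independent. Psmb8 over Psmb5 was 2.84 ± 0.26 in thymus (SD, n = 3) and differed by -0.78 (exact permutation p = 0.0022, adjusted p = 0.0165). Psmb10 over Psmb7 was 1.83 ± 0.44 in thymus (SD, n = 3) and differed by -0.68 (exact permutation p = 0.0044, adjusted p = 0.022). In BALB/c liver_H, which was not in this test, Psmb10 over Psmb7 was close to thymus, at 1.88 ± 0.41 (SD, n = 3). Psmb7 shares 405 exon bases with Nek6 on the opposite strand, with means of 408 for Psmb7 and 69.5 normalised reads for Nek6. As for Psmb9 and Tap1, reads in that stretch cannot be told apart. For Psmb10 over Psmb7, thymus and the other BL6 libraries overlapped, with 2.20 in thymus replicate 1 and 2.09 in BL6 liver_H replicate 3. Each mean ratio was lower in thymus than over the other BL6 libraries, by a factor of 0.57 to 0.62. All 3 missed the threshold without thymus replicate 2 or 3 (adjusted p = 0.0824 to 0.12), when 2 thymus libraries remain.

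**Figure D3:**
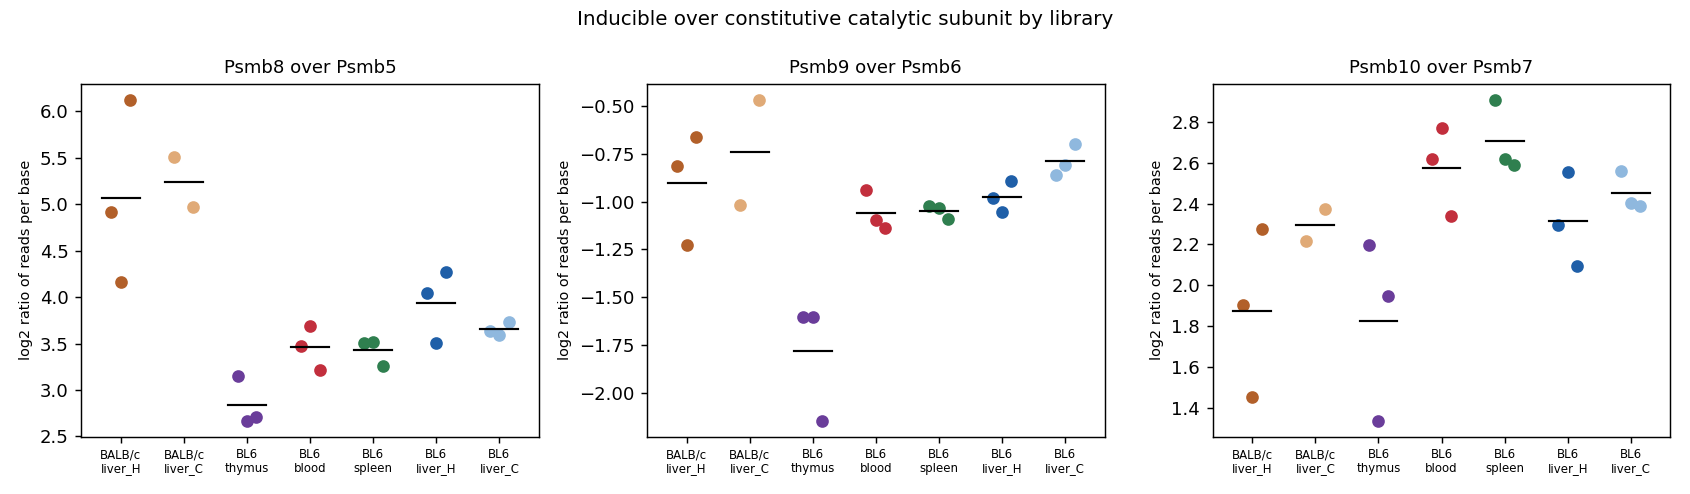
Log2 ratio of reads per base of each inducible catalytic gene over its constitutive counterpart (vertical axes) in every library (points) of the 7 groups, with bars for group means. Thymus has the lowest mean ratio for all 3 pairs, at 2.84, -1.78 and 1.83, and BALB/c liver the highest Psmb8 over Psmb5. For Psmb10 over Psmb7, BALB/c liver_H lies close to thymus, at 1.88.

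Genes that load peptides on MHC class I, and genes of interferon gamma signalling that switch on the immunoproteasome, were listed beside the members. Of 19 tested, 8 were lower and 1 higher in thymus than in spleen. Among the lower genes were Jak2, a kinase of the interferon gamma receptor (-1.39), the transcription factor Irf1 (-0.89), the peptide transporter genes Tap2 (-0.60) and Tap1 (-0.44), Tapbpl (-0.51), B2m (-0.44) and Nlrc5 (-0.49). The interferon gamma receptor chain Ifngr1 was higher (1.16), at 5376 ± 701 normalised reads in thymus and 2396 ± 236 in spleen (SD, n = 3 each). Irf1 had 1390 ± 223 normalised reads in thymus and 2561 ± 50.4 in spleen (SD, n = 3 each). Of 27 tested genes for ubiquitin and proteasome partners, only Ubb, a ubiquitin gene, was called (-0.34).

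Warm digestion of the liver gave few calls, among proteasome genes as among all genes tested. In BL6, 1 of 47 members was called, where 2.40% of all genes were called. It was Psmd6 (ENSMUSG00000021737.4, chromosome 14 from 14112174 to 14120984, minus strand), a subunit of the 19S lid. Psmd6 had 448, 453 and 468 normalised reads in liver_H, against 623, 719 and 690 in liver_C, without overlap. Of all genes tested 20.3% did not overlap, in either direction, and of the 47 members 4 did not. The log2 difference of Psmd6 was -0.57 (SE 0.14, limma adjusted p = 0.0486), close to the threshold. It lost the call without any one of the 6 libraries, and also in a fit blocked on library range (-0.35, limma adjusted p = 0.653).

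In BALB/c, Psmd6 had 516, 526 and 475 normalised reads in liver_H, against 682 and 690 in liver_C. The libraries did not overlap, which held for 6 of the 47 members and 18.5% of all genes tested. The Psmd6 difference of -0.44 (SE 0.15) was not called (limma adjusted p = 0.408). No member was called in BALB/c, where 0.273% of all genes were, and 2 were under 0.05 before adjustment. The count tests of edgeR and DESeq2 on recovered reads also called 0. The other was Psmc5, an ATPase of the 19S base, with 634, 667 and 550 normalised reads in liver_H, against 469 and 402 in liver_C (log2 difference 0.50, limma adjusted p = 0.402). With both strains in 1 contrast, chosen after seeing the data, Psmd6 was lower in liver_H (log2 difference -0.50, SE 0.10, limma adjusted p = 0.0197), where 1.68% of all genes were called. Within the middle range of library numbers Psmd6 had 468 in liver_H, against 623 in liver_C of BL6, and 475 against 690 in BALB/c. No member passed the interaction test of the digestion effect between strains, where 0% of all genes were called, with 0 members under 0.05 before adjustment and 0 called by edgeR or DESeq2.

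**Figure D4:**
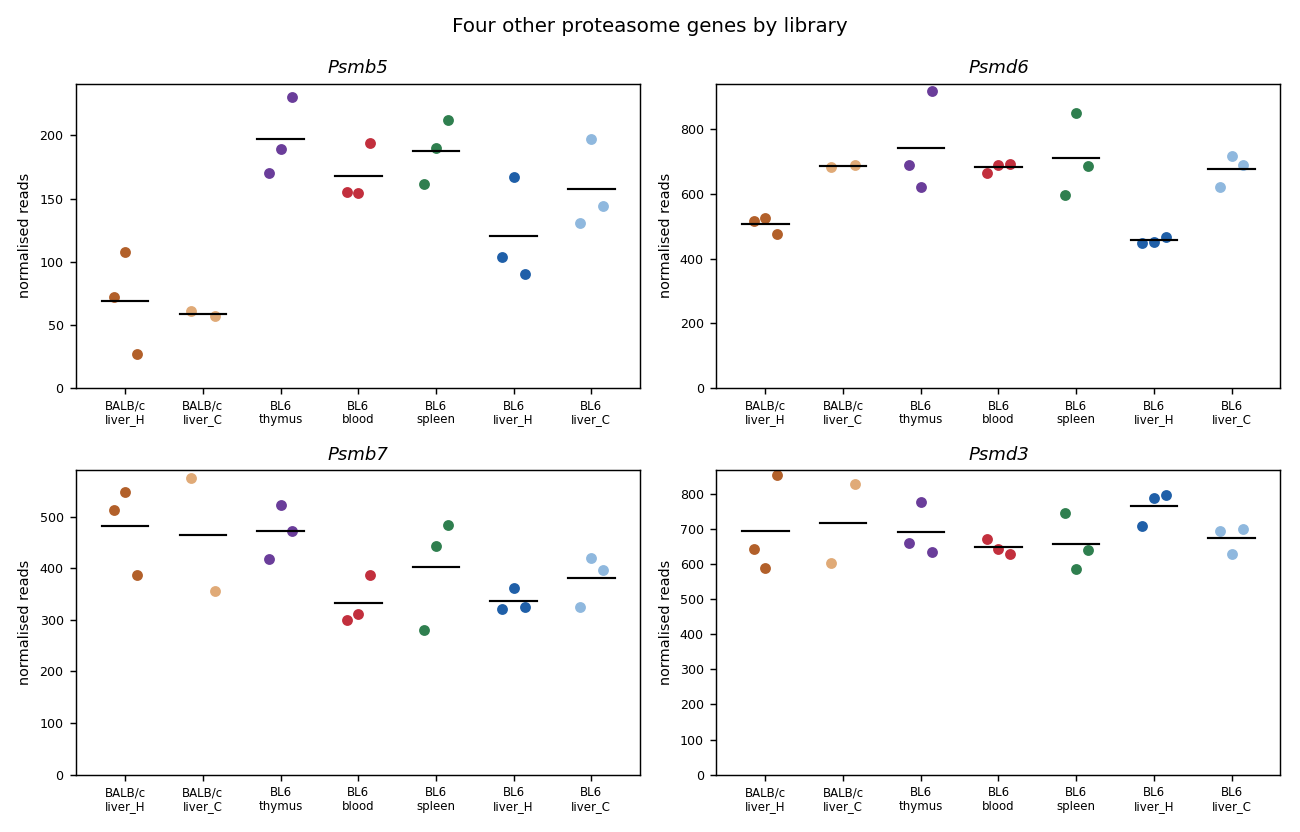
Normalised reads of Psmb5, Psmd6, Psmb7 and Psmd3 (vertical axes, from 0) in every library (points) of the 7 groups, with bars for group means. Psmd6 lies at 448 to 526 in the 6 liver_H libraries, below the 5 liver_C libraries at 623 to 719, and Psmb5 is lowest in BALB/c liver.

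The immunoproteasome genes had median log2 differences of -0.13 in BL6 and -0.29 in BALB/c liver_H against liver_C, and none was called. Among partners of the proteasome, Zfand2a and Zfand5, which encode zinc finger proteins that bind it, were higher in BL6 liver_H. Zfand2a had 242 ± 54.8 normalised reads in liver_H and 113 ± 7.83 in liver_C (SD, n = 3 each), a log2 difference of 1.07 (limma adjusted p = 0.0228). Zfand5 had 911 ± 52.0 and 472 ± 60.5 normalised reads in these groups, a log2 difference of 0.95 (limma adjusted p = 8.7e-04). In BALB/c, Zfand2a was higher by 1.68 (limma adjusted p = 0.0064). These were 2 of 27 partner genes in BL6 and 1 of 27 in BALB/c.

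Between the strains, Psmb5, the core subunit with chymotrypsin-like activity, had the lowest levels in BALB/c. It had 72.2, 107 and 26.8 normalised reads in BALB/c liver_H, against 104, 167 and 90.1 in BL6 liver_H. It had 61.1 and 56.6 in BALB/c liver_C, against 130, 198 and 144 in BL6 liver_C. The liver_C libraries did not overlap, as for 24.9% of all genes tested and 6 of 47 members, and the liver_H libraries did. Neither difference was called alone, at -1.38 (SE 0.48, limma adjusted p = 0.254) in liver_C and -0.95 (SE 0.43, limma adjusted p = 0.308) in liver_H. No member was called in either comparison, where 2.58% and 3.71% of all genes were, each with 3 under 0.05 before adjustment, and edgeR and DESeq2 called 0. Beside Psmb5, the smallest p in liver_C was that of Psmg2, with 279 and 248 normalised reads in BALB/c, against 168, 188 and 199 in BL6 (log2 difference 0.50, limma adjusted p = 0.435). In liver_H it was that of the chaperone Psmg1, with 149, 166 and 132 normalised reads in BALB/c, against 71.3, 111 and 63.3 in BL6 (0.89, limma adjusted p = 0.216). The catalytic subunit Psmb7 had 512, 548 and 387 normalised reads in BALB/c liver_H, against 322, 362 and 326 in BL6 liver_H (0.50, limma adjusted p = 0.245). In a contrast over both preparations, chosen after seeing the data, Psmb5 was lower in BALB/c (log2 difference -1.17, SE 0.32, limma adjusted p = 0.0474), 1 of 47 members where 6.55% of all genes were called. The reads were aligned to a BL6-derived reference genome, and the strain and the fit of the reads to the reference cannot be told apart.

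The ratio of Psmb8 over Psmb5 was higher in BALB/c liver. The mean log2 ratio was 5.07 ± 0.99 in liver_H (SD, n = 3) and 5.24 ± 0.38 in liver_C (SD, n = 2) of BALB/c, against 3.94 ± 0.39 and 3.66 ± 0.07 in BL6 (SD, n = 3 each). The difference was 1.36 (exact two-sided permutation p = 0.01 with labels permuted within preparation, adjusted p = 0.0375). It missed the threshold in 9 of the 11 tests that leave out 1 library (differences of 1.09 to 1.49, adjusted p = 0.06 to 0.125). Psmb8 itself did not pass between the strains. The ratio of Psmb10 over Psmb7 differed by -0.30 (exact permutation p = 0.04, adjusted p = 0.12), and that of Psmb9 over Psmb6 by 0.06 (exact permutation p = 0.64, adjusted p = 0.8). Of the antigen processing genes, Ifngr1 (-1.08) and Nlrc5 (-0.98), an activator of MHC class I genes, were lower in BALB/c liver_C, and in liver_H Ifngr1 (-1.09), Nlrc5 (-0.90) and Tap1 (-0.54).

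Between spleen and cold liver of BL6 none of the 47 members passed, where 2.55% of all genes were called. Before adjustment 2 were under 0.05, and edgeR and DESeq2 called 0. These were the alpha subunit Psma3 (log2 difference 0.36, limma adjusted p = 0.328) and Psmb6 (0.32, limma adjusted p = 0.343). Psma3 had 745, 976 and 840 normalised reads in spleen, against 525, 817 and 677 in liver_C. Psmb6 had 756, 877 and 980 normalised reads in spleen, against 621, 820 and 652 in liver_C. All 14 constitutive genes had a positive difference, with a median of 0.14, but they share the libraries and are not 14 independent observations. The share of reads in the 6 most abundant genes was 30.6% to 41.5% in spleen and 28.2% to 32.5% in liver_C, and its part in these values was not tested. Of the 19 antigen processing genes, Ifngr1 (-0.93) and Nlrc5 (-0.68) were lower and Ifngr2 (3.67) higher in spleen, the last a gene of low level with 33.0 ± 2.65 normalised reads in spleen and 2.24 ± 1.94 in liver_C (SD, n = 3 each). Of B and plasma cell markers 5 of 6 tested were higher in spleen.

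Blood and spleen also gave 0 called members, where 4.22% of all genes were called. The 2 count tests called 0 members as well. Before adjustment 8 members were under 0.05, a count with no share of all genes beside it. The lowest p were those of Psmg4, a core assembly chaperone (log2 difference -0.51, limma adjusted p = 0.148), and Psmc6, an ATPase of the 19S base (-0.34, limma adjusted p = 0.151). Psmg4 had 225, 194 and 202 normalised reads in blood, against 253, 329 and 305 in spleen, without overlap. Psmc6 had 561, 775 and 768 normalised reads in blood, against 878, 924 and 833 in spleen, also without overlap. Of all genes tested 23.1% did not overlap, in either direction, and of the 47 members 12 did not. Psmb9 had 648, 716 and 683 in blood, against 728, 838 and 898 in spleen (log2 difference -0.26), and was not called. Of the constitutive genes 13 of 14 had a negative difference, with a median of -0.18, but they share the libraries and are not independent observations. The share of reads in the 6 most abundant genes was 29.1% to 40.6% in blood and 30.6% to 41.5% in spleen, and its part was not tested. A fit blocked on library range called 2 members, Psma3 (-0.41) and Psmb10 (-0.50), and the share of all genes called in that fit is not given here. Of the 19 antigen processing genes, Ifngr1 was higher (0.80) and Irf1 (-0.50) and Jak2 (-0.53) were among those lower in blood.

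Within groups the core subunits, the chaperones and, less closely, the immunoproteasome genes moved with the composition of the library. After subtracting group means, the median of the 14 constitutive genes followed the share of reads taken by the 6 most abundant genes over the 20 libraries (Pearson r = 0.73, Spearman rho = 0.69), and r was 0.58 without the 2 libraries farthest from the median. It was 0.58 in the 7 libraries of the lowest and 0.65 in the 8 of the highest range. Of the constitutive genes 12 of 14 had a positive correlation, and of all 9545 genes with a mean of at least 50, 50.6% had one. Psmb3, a core beta subunit, stood at r = 0.86 and the 19S lid subunit Psmd3 at r = -0.83. The chaperones had r = 0.71, with 7 of 7 positive, but 0.06 within the highest range. For the immunoproteasome genes r was 0.61, with 3 of 3 positive, and it was 0.33 within the lowest and 0.74 within the highest range. For the regulatory genes r was 0.43. The share was 33.5% to 45.1% in thymus and 30.6% to 41.5% in spleen, and with it as a covariate, chosen after seeing the data, 5 members were called in that comparison. How many of all genes were called in that fit is not given here.

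**Figure D5:**
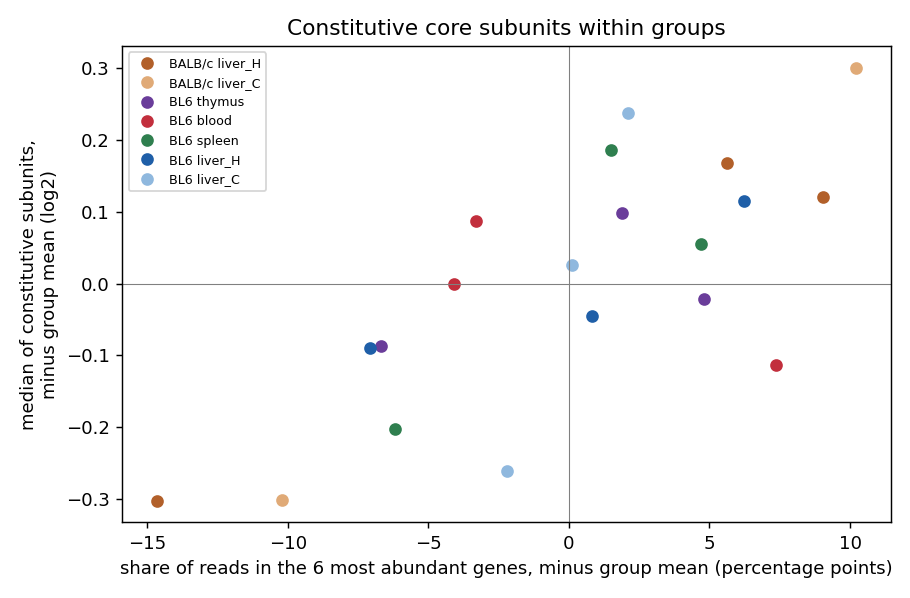
Median log2 deviation of the 14 constitutive genes from their group mean (vertical axis) against the deviation of the share of reads in the 6 most abundant genes (horizontal axis, percentage points), 1 point per library, coloured by group. Libraries with a larger share have higher constitutive levels (r = 0.73).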

How the data were processed

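RNA of sorted CD4+ iNKT1 cells was measured in 20 libraries made with a total RNA kit. The authors trimmed reads with Trim Galore 0.4.4, aligned them with STAR to GRCm38.p6, counted them per gene with featureCounts and divided the counts by DESeq2 size factors. The deposited unit is this signal. The deposited table also gives gene length, used here per kilobase, and the authors' base mean and thymus comparison with fold changes and p-values, which were not used. No column of values lacked a sample (0). Whole reads were recovered (at least 99.976% of values within 0.05 of a whole read), with 9336861 to 22879834 reads per library.

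Values were transformed to log2(value + 1), and fold changes on this scale understate changes of low genes. Genes with at least 10 in at least 3 libraries of a fit entered limma 3.58.1 (trend option, R 4.3.3), with p adjusted over all genes by Benjamini-Hochberg with a threshold of 0.05. Counts of members under 0.05 before adjustment have no share of all genes beside them, since that share was not computed. The fits held 9 BL6 libraries (spleen and liver), 11 liver libraries, 15 BL6 libraries or all 20. The count tests of edgeR 4.0.16 and DESeq2 1.42.0 on recovered reads were alternatives. Ratios were compared by exact permutation tests, 15 in all. The fits and the permutation test were checked on simulated data. Members and lists were chosen with earlier results of these data known. Values in every library are given for Psmb5 to Psmb10, Psme1, Psme2 and the members with the smallest adjusted p. A line without a gene was not used here, and 1 gene of the antigen processing list is counted but its values are not reported here. Promoters are those of RefSeq (GRCm38.p6), with windows of 300 bases for 40 members.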

Additional observations from a re-analysis of the deposited data

How the results depend on the processing

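In BL6 liver_H against liver_C, 1 member became 0 with a pseudocount of 0.5, without the filter, with quantile normalisation, with the library range as block, with all 20 libraries and without any one library (0 to 0), and 2 with the share of the 6 most abundant genes as covariate. That covariate, added after seeing the data, gave 1 in each BALB/c against BL6 comparison and 8 over the 7 groups, where the library range as block gave 12. Both preparations together gave 1 between the strains, the range block gave 2 in blood against spleen, and blood in place of spleen gave 0 for thymus. Leaving out 1 library gave 2 to 5 members in thymus against spleen (2 without spleen replicate 2 or thymus replicate 2) and 3 to 7 over the 7 groups. In all 20 alternatives of that thymus comparison Psmb9 kept its direction (-0.80 to -0.40), as did Psme1 (-0.64 to -0.22), Psmb8 (-0.61 to -0.39) and Psmb10 (-0.75 to -0.24). Counts of members under alternative settings have no share of all genes called in the same fit beside them, and can change with it.

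Without the lowest library range, the thymus differences in the log2 ratios were -0.91 (Psmb8 over Psmb5), -0.91 (Psmb9 over Psmb6) and -0.88 (Psmb10 over Psmb7), and the BALB/c difference in Psmb8 over Psmb5 was 1.59, none past the threshold with fewer libraries. Leaving out 1 library, the thymus differences were -0.93 to -0.69, -0.91 to -0.63 and -0.87 to -0.44, and the BALB/c differences were 1.09 to 1.58 for Psmb8 over Psmb5 and -0.40 to -0.19 for Psmb10 over Psmb7, with calls lost as given above and the last past the threshold only without BALB/c liver_H replicate 3. No paired analysis was possible because the labels give no replicate numbers that the groups share.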
